A study of Mus musculus with 3 samples.

Results

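Small nucleolar RNAs (snoRNAs) and the other small non-coding RNAs of the nucleus were examined in CD4+CD8− thymocytes with and without PLZF, the transcription factor of innate-like T cells that the gene Zbtb16 encodes. The members were all probe sets on Affymetrix Mouse Gene 1.0 ST arrays with an annotated symbol that begins with Snora, Snord, Scarna, Rnu or Rny and a digit. They were 68 of 24800 probe sets and listed 63 different small RNAs. Of these probe sets, 48 listed such small RNAs only, and 20 listed another symbol as well and are described apart. The other symbol was the host gene for 10 probe sets, a microRNA for 2, Gm26504 for 6 and Rdm1, a gene that does not contain the small RNA, for 2. Gm26504 was grouped by hand as a further small RNA.

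The samples were 1 array each of PLZF+/+, PLZF+/lu and PLZFlu/lu γδNKT cells from female mice on the C57Bl/6 background, 3 to 4 weeks old. All mice were Rag1-/- and carried the Vγ1Vδ6.4 TCR transgenes, so that the transgenes supplied the only antigen receptor, and the CD4+CD8α− cells were sorted in 2 rounds. The luxoid (lu) allele is a point mutation of the PLZF gene. The sources used here do not say how many mice stand behind each array, and where intensities are listed without genotypes their order runs from PLZF+/+ through PLZF+/lu to PLZFlu/lu. With 1 array per genotype there is no replicate error, no test and no p-value, and a difference of more than 2-fold was used as a rule of size. The 3 comparisons share arrays and are not independent of each other.

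Most snoRNAs are cut from the introns of host genes, many of which encode ribosomal proteins or translation factors. Box C/D snoRNAs (Snord) pair with ribosomal RNA and guide the methyltransferase fibrillarin, while box H/ACA snoRNAs (Snora) guide the pseudouridine synthase dyskerin. Small Cajal body RNAs (Scarna) do the same for the RNAs of the spliceosome, U RNAs (Rnu) form the spliceosome or process precursors, and Y RNAs (Rny) bind the Ro60 protein. Growing and dividing lymphocytes make many ribosomes and need these RNAs in quantity. The RNA was total RNA passed over an RNeasy column, and a probe inside an intronic snoRNA also hybridises to unspliced host RNA, so these sources of signal cannot be told apart. The small RNA genes are 48 to 212 bases long in RefSeq, and how much RNA of that size the preparation kept was not tested. The intensities are therefore not a measure of mature small RNA alone. In a bulk sample, fewer cells with an RNA and less of it per cell cannot be told apart either.

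Sequences of the snoRNAs themselves were not used here, but 2 member probe sets also listed a microRNA, whose mature sequences are held by RefSeq (GRCm38.p6). They are shown because in the genome each microRNA gene overlaps the snoRNA of its probe set, so that 1 probe set can report on both. Capitals mark the seed, bases 2 to 8 from the 5′ end.
mmu-miR-664-5p: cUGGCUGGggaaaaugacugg
mmu-miR-664-3p: uAUUCAUUuacuccccagccua
mmu-miR-1291: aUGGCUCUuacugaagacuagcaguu
Both arms of miR-664 (chr1:185242975-185242995 and chr1:185243012-185243033, plus strand) lie wholly within Snora36b. Of the 26 bases of miR-1291 (chr15:98519828-98519853, minus strand), 7 lie within Snora34. The 3 mature microRNAs have 3 different seeds.

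The start regions of the genes that carry the small RNAs were searched for 1 sequence feature. RefSeq places 61 of the 68 probe sets within at least 1 other gene, and 49 such genes were found. The strand of the small RNAs was not given in the table, so containment was judged by position alone. Messenger RNAs of the translation machinery typically begin with a C followed by a run of pyrimidines, the terminal oligopyrimidine (TOP) tract. The start regions of 4 host genes are shown, with the letters CTTTC in capitals where they occur, 15 bases before and 15 bases after the annotated start. The first 3 hold the string, as the minority of host windows did, and the last does not. They carry Snora44 and Snora3, which had the largest excess in PLZF+/+ over PLZFlu/lu among probe sets with small RNAs only, Snora52, which had nearly equal values, and Snora75 and Snord82, whose host is the nucleolin gene Ncl.
Snhg12 (host of Snora44), chr4:132308663-132308692, plus strand: ggccgttctcagtcCTTTCtcgcttcatcc
Rpl27a (host of Snora3), chr7:109519180-109519209, plus strand: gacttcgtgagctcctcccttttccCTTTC
Rplp2 (host of Snora52), chr7:141447636-141447665, plus strand: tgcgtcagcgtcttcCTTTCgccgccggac
Ncl (host of Snora75 and Snord82), chr1:86359441-86359470, minus strand: ggctccggggacggacgcgagctctggttg
RefSeq start regions were at hand for 37 of the host genes, in 38 windows. Within 20 bases on either side of the start, CTTTC on the strand of the gene was present in 11 of these windows (28.9%), against 5.49% of all 32851 windows. Its reverse complement, GAAAG, was present in 1 window (2.63%) and in 4.86% of all. Of the strings that overlap it, CTTTT was found in 13.2% of the host windows and 4.34% of all. TTTCC was found in 21.1% of the host windows and 6.25% of all, and the longer CTTTCC in 7.89% and 1.95%. On the other strand CTTTT was found in 2 host windows and the other strings in 0. A match is a string of letters near an annotated start, not a measured start site.

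Zbtb16 was at 8796, 6143 and 2890, in the order just given, so that it followed the number of intact alleles. The array medians lay between 160 and 162. All 7 measured T cell markers, Cd4 among them, were above background on the 3 arrays, while the B cell markers Cd79a and Ms4a1 and the red cell gene Alas2 were not. The B cell list summed to between 1479 and 1730 over its 3 measured genes, nearly all of it Cd79b, which was above background. The myeloid list summed to between 469 and 497 over 5 genes, and the thymic epithelial list to between 421 and 432 over 4. Of these, Itgam, Fcgr3, Krt8 and Foxn1 were above background on all 3 arrays, and Lyz2, Csf1r, Cd14, Epcam and Krt5 were on none. Of 3 listed red cell genes only Alas2 was measured. Cd8a and Cd8b1 together summed to 1659, 2782 and 3559 and so were highest in PLZFlu/lu, in cells sorted as CD8−, and their part in the small RNA results was not tested. Background was taken as 108, the intensity below which 95% of the values of 1033 olfactory receptor probe sets lie.

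Of the 68 small RNA probe sets, 54 lay above background on all 3 arrays, 2 on 1 array and 12 on none. Among the 48 with small RNAs only, 41 were above background on all arrays. The 7 that were not were Snora41, Snord52, Snord58b, Snord73a, Snord38a, the Y RNA Rny1 and Rnu7, the U7 RNA that trims histone messages. Equal values were frequent. Of the 48 probe sets, 19 (39.6%) had the same value on all 3 arrays and 32 (66.7%) on at least 2, against 45.1% and 73.6% of all 24800. Ties at intensities with several decimals are a property of the deposited values, so an equal value is not a measurement of no difference.

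Between PLZF+/+ and PLZFlu/lu, none of the 48 probe sets with small RNAs only differed by more than 2-fold, and none by more than 1.5-fold. Over all probe sets 0.589% passed 2-fold and 1.77% passed 1.5-fold. Higher values in PLZF+/+ were seen for 9 of the 48 and lower ones for 14, while 25 were equal. Over all 24800 probe sets 6073 were higher, 4789 lower and 13938 equal. The median log2 difference of the 48 was 0.00, as it was over all probe sets. The largest differences were 0.49 on the log2 scale for Snora44, higher in PLZF+/+, and -0.27 for Snord82, lower in PLZF+/+. In 9 of 10 probe sets the absolute log2 difference was at most 0.22, the same value as over all probe sets. These counts describe 2 arrays, and a share of 0 among 48 is close to the background of 0.589%.

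Snora44, a box H/ACA snoRNA carried by Snhg12, had the widest spread of the 48. Its intensity was 470 in the wild type, 591 in the heterozygote and 336 in the homozygote. PLZF+/lu was the highest array and PLZFlu/lu the lowest, so the values did not follow the order of the genotypes. The difference between PLZF+/lu and PLZFlu/lu was 1.76-fold, the only one past 1.5-fold in the 3 comparisons of these 48 probe sets. No probe set listed Snhg12 as its only gene, so the host transcript itself was not analysed here.

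Among the box H/ACA snoRNAs, 18 probe sets listed small RNAs only, and between PLZF+/+ and PLZFlu/lu 5 were higher, 5 lower and 8 equal. Snora3, within the ribosomal protein gene Rpl27a, was at 2556, 2336 and 2046 by its first probe set, which is 0.32 higher in PLZF+/+ than in PLZFlu/lu on the log2 scale. PLZF+/lu lay between. The other probe set of Snora3 was at 2113 on all 3 arrays, and such a tie does not show whether it shared the difference. The difference was therefore seen in the first probe set only. Snora70, within Rpl10 on the X chromosome, was at 493, 462 and 419, again with PLZF+/lu between. Snora75, within the nucleolin gene Ncl, was at 752, 979 and 756, so that PLZF+/lu stood apart and the outer genotypes were alike. Snora74a showed the same form at 512, 602 and 517. Snora20 was at 248, 276 and 241. Snora23, within Ipo7, had the opposite order to Snora3 with 2036, 2169.5 and 2302, and Snora2b, within Kansl2, was at 198, 195 and 232. The other members differed by little. Snora21 was at 3132, 3198 and 3257 by its first probe set and at 358 on each array by its second, Snora69 at 1507, 1368 and 1466, Snora52 at 10809, 10743 and 10809 and Snora62 at 226, 224 and 226. Values were equal on all 3 arrays for Snora7a at 2577, Snora31 at 524, Snora33 at 373 and Snora41 at 53.5.

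The 23 box C/D probe sets with small RNAs only had 3 higher in PLZF+/+ than in PLZFlu/lu, 6 lower and 14 equal. Snord82, which lies within Ncl as Snora75 does, was at 2447, 2509 and 2950, a 1.21-fold difference with PLZFlu/lu highest. Snord42b, within Rpl23a, was at 427, 439 and 495 and also highest in PLZFlu/lu. Snord16a, within Rpl4, was at 1527, 1779 and 1408, with PLZF+/lu highest. Snord37, within the elongation factor gene Eef2, was at 295 in PLZF+/+ and 326 in both other genotypes. Snord8 was at 801 in PLZF+/+ and 831 in the others, Snord87 at 476, 447 and 483, and Snord85 at 392, 432 and 392. In the 5 others with any difference, Snord49b, Snord53, Snord15a, Snord15b and Snord35a, the highest array exceeded the lowest by at most 1.03-fold. Values were equal on all arrays for 11 probe sets, of which Snord33 and Snord35b were at 1546 and 1721. Snord33 and Snord35a belong to the snoRNAs of the Rpl13a locus that are known from the response to lipid and oxidative stress, and Snord35a was at 2304, 2250.5 and 2304. Snord22, one of the snoRNAs of the Snhg1 transcript and known from the processing of the small ribosomal subunit RNA, was equal at 349. The rest with equal values were Snord73b at 1006, Snord49a at 478, Snord96a at 254, Snord61 at 189 and, below background, Snord73a at 106, Snord52 at 92.7, Snord58b at 66.1 and Snord38a at 55.1.

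The U RNAs, Cajal body RNA and Y RNAs with a probe set of their own differed by at most 1.30-fold in the 3 comparisons. Rnu1b6, Rnu1b2 and Rnu1b1 are near-identical copies of U1, the RNA that recognises the 5′ splice site, and share 1 probe set. It was at 892, 1159 and 1000.1, so PLZF+/lu was highest and 1.30-fold above PLZF+/+. Rnu3a encodes U3, a box C/D RNA that despite its name acts in ribosomal RNA processing, and was at 385, 319 and 355, lowest in PLZF+/lu. The U12 RNA of the minor spliceosome, Rnu12, was equal at 155, and Rnu7 was below background at 48.2, 48.2 and 51.1. Scarna8, a guide of the Cajal body, was equal at 464 on all 3 arrays. Rny3 was at 12837, 12745 and 12837, a spread of 1.01-fold, while Rny1 was below background at 64.1, 64.7 and 64.7. The Ro60 gene, whose protein binds Y RNAs, was equal at 209 on all 3 arrays, and so was Ssb, which encodes the La protein, at 1534.

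**Figure D1:**
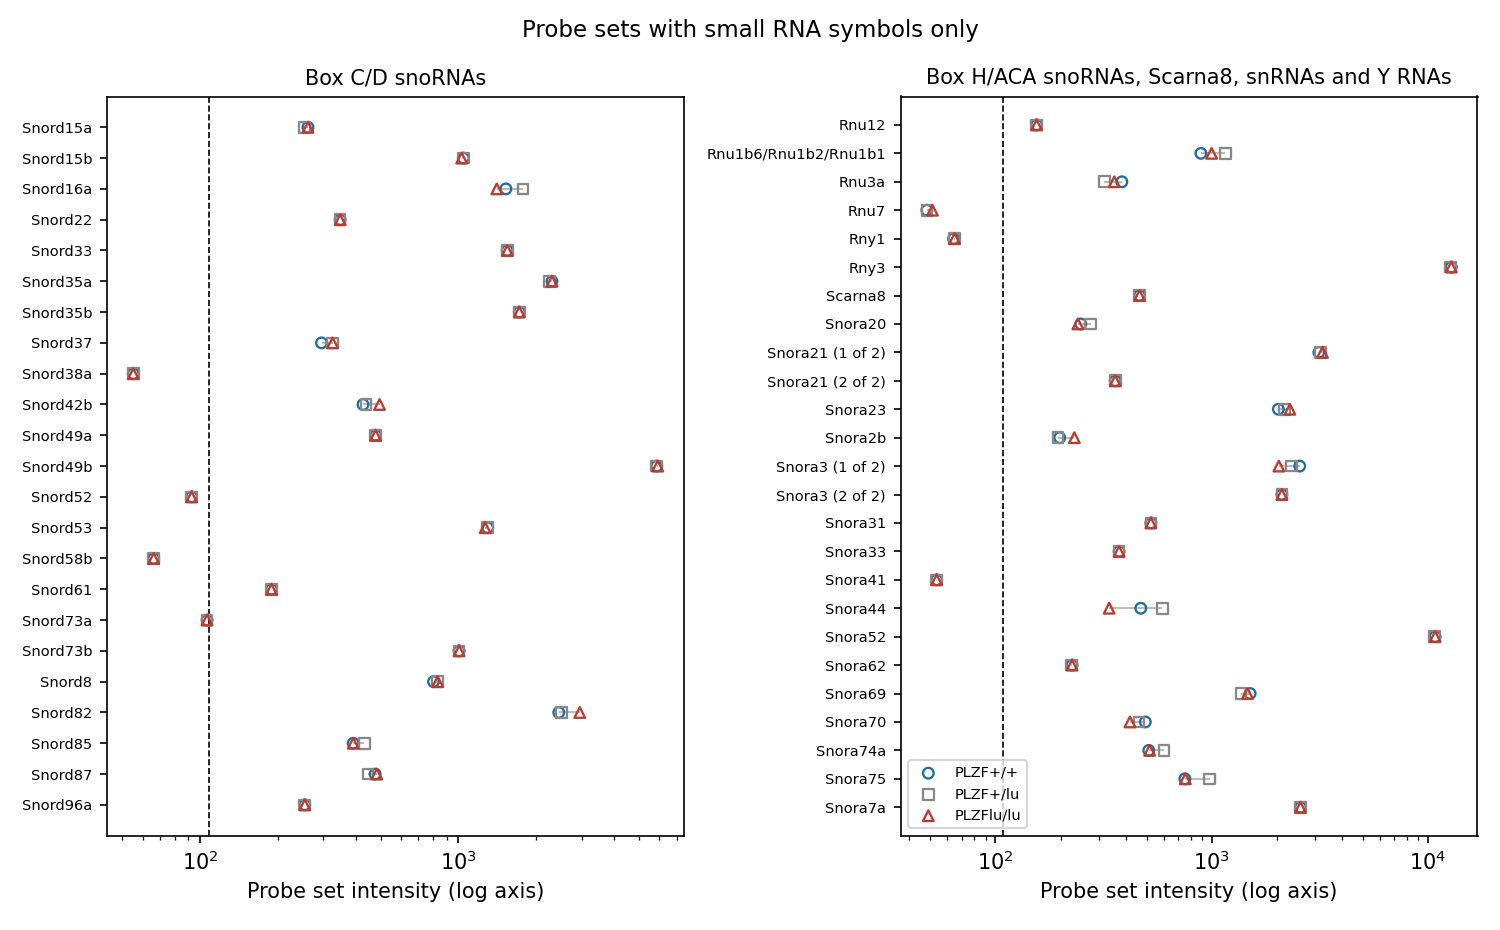
Intensities of the 48 probe sets with small RNA symbols only on a logarithmic axis, each symbol being 1 array (circle for PLZF+/+, square for PLZF+/lu, triangle for PLZFlu/lu), without error bars for lack of replicates. The dashed line is the background level of 108. The symbols of 19 probe sets coincide, and Snora44 has the widest spread, from 336 to 591.

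In the comparison of PLZF+/+ with PLZF+/lu, again none of the 48 passed 2-fold or 1.5-fold (0.234% and 1.15% of all probe sets did). Of the 48, 11 were higher in PLZF+/+, 14 lower and 23 equal. Over all 24800 probe sets 5983 were higher, 5484 lower and 13333 equal. The log2 differences of the 48 ran from -0.38 for Snora75 to 0.27 for Rnu3a. Between PLZF+/lu and PLZFlu/lu none passed 2-fold, against 0.319% of all probe sets. Snora44, above, passed 1.5-fold, against 1.06% of all, and 11 were higher in PLZF+/lu, 15 lower and 22 equal. Over all 24800 probe sets 6101 were higher in PLZF+/lu, 5366 lower and 13333 equal. PLZF+/lu lay strictly between the outer genotypes for 6 of the 48 probe sets, above both for 7, below both for 9 and tied with 1 or both for 26. Over all probe sets the shares were 11.8% between, 13.3% above, 12.5% below and 62.5% tied, and the corresponding shares of the 48 were 12.5%, 14.6%, 18.8% and 54.2%.

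The members past 2-fold were all found among the 20 probe sets that list another symbol, and all belonged to Snord116. This is a tandem cluster of box C/D snoRNAs within Snhg14, in the imprinted region whose loss on the paternal chromosome causes Prader-Willi syndrome in humans, and it is known mainly from neurons. In all, 6 probe sets list the same symbols, Snord116l1, Snord116l2 and Gm26504, so they were not taken as independent. Whether their probes share target sequence was not tested. By the deposited values 4 of the 6 were more than 2-fold lower in PLZF+/+ than in PLZFlu/lu, where 0.302% of all probe sets were, and 3 of the 6 were more than 2-fold lower in PLZF+/lu than in PLZFlu/lu, where 0.198% were. All of them were dim. The first probe set was at 48.0, 43.1 and 107. The second was at 37.9, 27.3 and 81.7, and the sixth at 20.3, 21.3 and 75.6. In these 3, the array of PLZFlu/lu was the highest, but no value exceeded the background level. The third probe set was at 47.6, 75.9 and 131, and the fifth at 92.0, 71.6 and 116. In both, the value in PLZFlu/lu exceeded background, so that against the level of 108 PLZFlu/lu was at least 1.21-fold and at least 1.07-fold higher than PLZF+/+. The fourth was at 68.8, 71.9 and 69.7 and showed no such order. PLZFlu/lu was thus the highest array in 5 of 6 probe sets, at levels where the arrays give little more than background. Of the 1033 olfactory receptor probe sets behind that level, 1 passed 2-fold between PLZF+/+ and PLZFlu/lu. The source of the Snord116 values was not tested. Ndn and Magel2, protein-coding genes of the same imprinted region that were looked up after these values were seen, were below background and equal on all arrays, at 54.3 and 89.3.

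The 2 probe sets of Rnu2-10, the U2 RNA that pairs with the branch point of introns, also list Rdm1. They were at 3138, 2921 and 4577 and at 6070, 6070 and 7219. Both were highest in PLZFlu/lu, by 1.46-fold and 1.19-fold over PLZF+/+, with PLZF+/+ and PLZF+/lu within 1.07-fold of each other. Which of the genes gave the signal was not tested. Snora34 with Mir1291 was at 504, 446 and 573 and highest in PLZFlu/lu, and Snora36b with Mir664 was below background and equal at 47.5.

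Of the 10 probe sets that list a host gene, 2 were higher in PLZF+/+ than in PLZFlu/lu, 5 lower and 3 equal, and none passed 2-fold. The largest difference was that of the second probe set of Snord14d, Snord14c and Hspa8. These U14 snoRNAs, needed for the processing of ribosomal RNA, lie in introns of Hspa8, the gene of the constitutive heat shock chaperone. It was at 2668, 3496 and 4317, which is 1.62-fold lower in PLZF+/+ than in PLZFlu/lu, with PLZF+/lu between. The first probe set of the same genes was at 5742, 5234 and 6546 and was 1.14-fold lower. The 3 probe sets that list Hspa8 alone had the other direction. They were at 12691, 10627 and 10531, at 11936, 8960 and 9480 and at 4735, 3261 and 3622, with log2 differences of 0.27, 0.33 and 0.39 between PLZF+/+ and PLZFlu/lu. The remaining host probe sets differed by less. Snord14a with Rps13 was at 1264, 1449 and 1194, Snord68 with Rpl13 at 354, 337 and 380, Snord34 with Rpl13a at 891, 891 and 949 and Snora28 with Eif5 at 1653, 1816 and 1653. Snord32a with Rpl13a, at 3417, 3417 and 3425, and Snora65 with Rpl12, at 1060, 1060 and 1055, were nearly equal, and Snora43 with Snhg7, at 664, and Snord7 with AI450353, at 128, were equal.

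**Figure D2:**
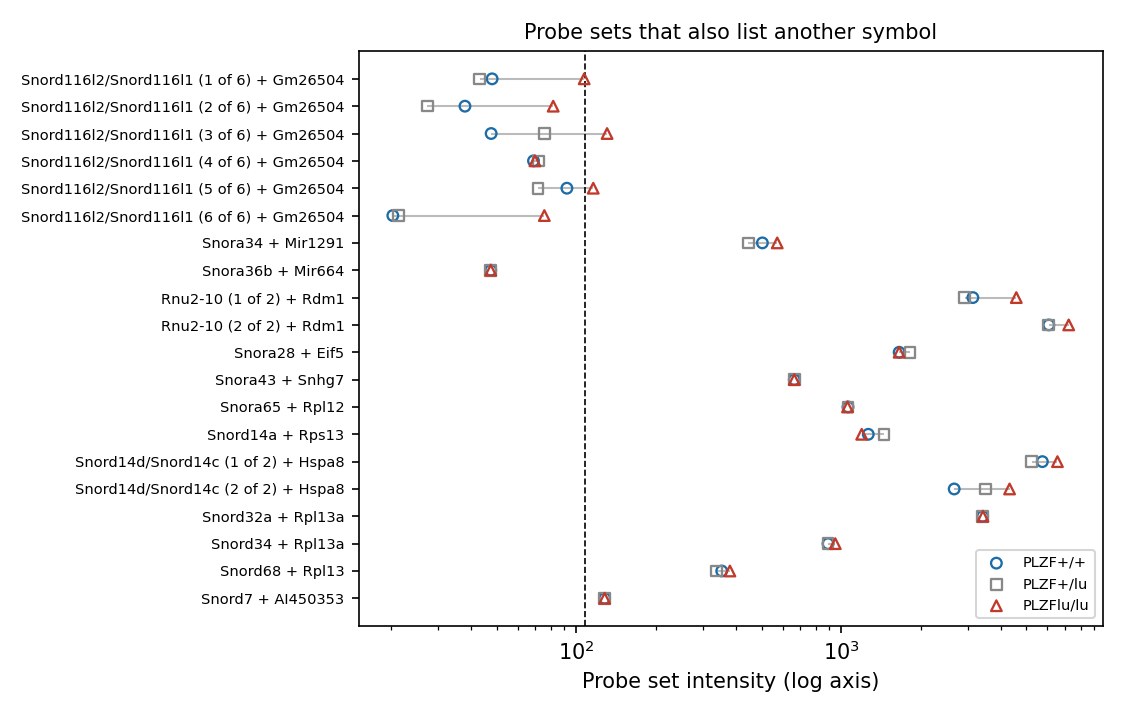
Intensities of the 20 probe sets that list a small RNA and another symbol on a logarithmic axis, each symbol being 1 array (circle for PLZF+/+, square for PLZF+/lu, triangle for PLZFlu/lu), without error bars for lack of replicates. The 6 Snord116 probe sets lie around or below the background level of 108 (dashed line), and the triangle is the rightmost symbol in 5 of them.

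Whether the snoRNAs followed their host genes could be looked at for 28 probe sets with small RNAs only, whose 23 host genes had a probe set listing that gene alone. By the brightest probe set of each host, 13 were higher in PLZF+/+ than in PLZFlu/lu, 3 lower and 7 equal. The differences of the hosts reached 0.24 on the log2 scale, and their median was 0.03. Of the 28 small RNA probe sets 6 were higher, 10 lower and 12 equal, with a median of 0.00. The signs were the same in 7 pairs and opposite in 5, and in the other pairs at least 1 value was equal. In 2 pairs the host was below background on all arrays, Gm10685 at 32.3 for the U1 probe set and Mcmdc2 at 63.2 for Snord87, which also lies in Snhg6, and in 2 more the small RNA was, Snora41 and Snord73a. These 4 pairs cannot show whether a small RNA followed its host, and all 12 pairs with a sign were among the 24 above background. Rpl27a, at 4440, 4081 and 4008, was higher in PLZF+/+ as the first Snora3 probe set was. Rpl23a, at 4909, 4670 and 4618, and Kansl2, at 2547, 2325 and 2322, were higher in PLZF+/+ while Snord42b and Snora2b within them were lower. Ncl was at 2997, 2997 and 3058 while its 2 snoRNAs had differing forms, with PLZF+/lu highest for Snora75 and PLZFlu/lu highest for Snord82. Of the 23 hosts, 8 have several probe sets, which often hold near-identical copies of ribosomal protein genes. For Rpl27a the 9 probe sets differed by -0.34 to 0.36 on the log2 scale. The negative differences were those of dim probe sets, at 40.0, 41.4 and 50.5 and at 98.2, 123 and 120. The others were all higher in PLZF+/+, by 0.06 to 0.36. Snora31 lies in Tpt1, which counted as equal, at 14787 on all arrays, by its brightest probe set. Another probe set of Tpt1 was at 14860, 13944 and 12397, a log2 difference of 0.26. By its remaining probe sets the difference was 0.04 and 0.00. The size given by the brightest probe set used here, and whether a host counts as equal, are therefore uncertain as measures of the gene that holds the snoRNA.

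**Figure D3:**
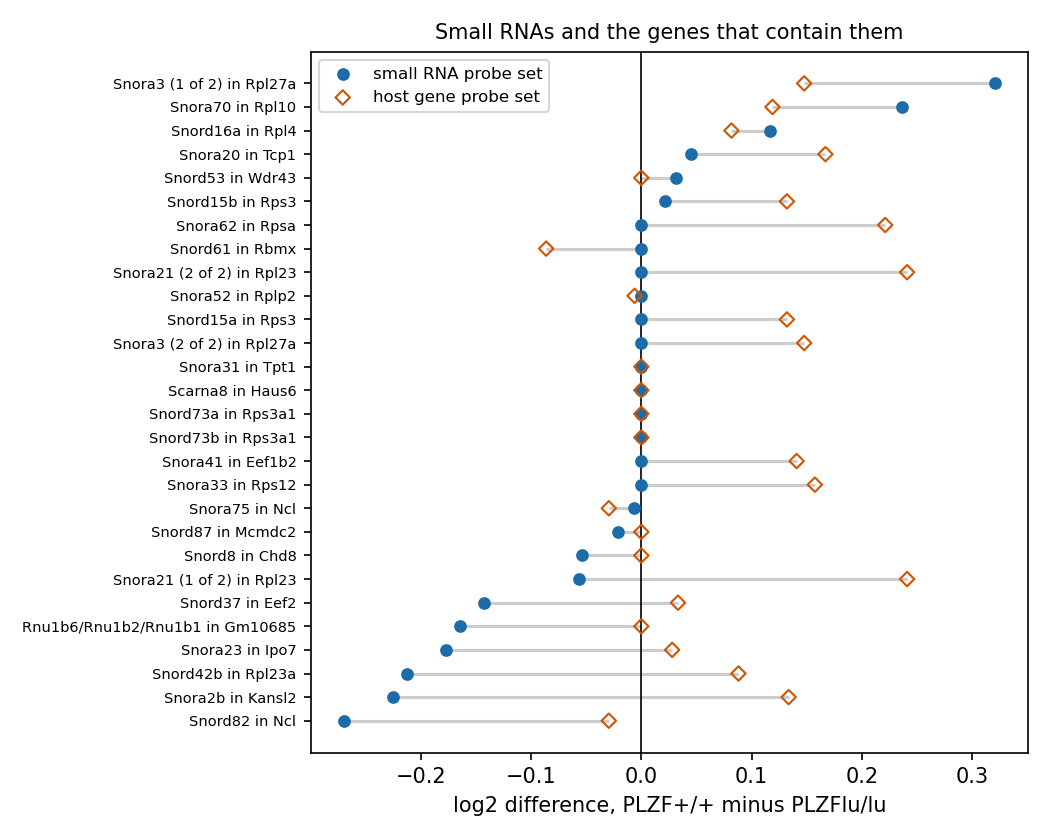
Difference between PLZF+/+ and PLZFlu/lu on the log2 scale for 28 small RNA probe sets (filled circles) and for the gene that contains each (open diamonds), with 1 array per genotype. Points right of the line at 0 are higher in PLZF+/+. By the brightest probe set of each, the hosts lie between -0.09 and 0.24, and 13 of the 23 are right of the line.

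The proteins that assemble, modify or bind these RNAs were looked at by gene list. Of 72 genes in 11 lists, 70 were measured, and 37 were higher in PLZF+/+ than in PLZFlu/lu, 4 lower and 29 equal, with none past 2-fold. The median log2 difference was 0.01. Over all 19518 measured genes 24.9% were higher and 16.9% lower, with a median of 0.00. All 70 list genes were above background on all 3 arrays, while only 59.5% of all 24800 probe sets were. The shares over all genes are therefore not a like baseline for these lists. Against PLZF+/lu the same 70 genes gave 37 higher in PLZF+/+, 6 lower and 27 equal, where 23.6% of all genes were higher and 21.2% lower. Between PLZF+/lu and PLZFlu/lu they gave 18 higher (25.7%), 15 lower (21.4%) and 37 equal. Over all genes, which are no like baseline here either, 24.6% were higher and 19.7% lower. The first 2 of these comparisons share the PLZF+/+ array.

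Of the box C/D core proteins, Fbl, which encodes the methyltransferase fibrillarin, was at 929, 776 and 636, a log2 difference of 0.55 with PLZF+/lu between. The other probe set of Fbl was at 755, 732 and 690, a difference of 0.13. Snu13, whose protein binds the kink turn of these snoRNAs, was at 3533, 3080 and 2677 by its brightest probe set, a difference of 0.40, and by the other 3 probe sets the difference was between 0.00 and 0.06. Nop56 was at 3050, 3192 and 2930, and Nop58 was equal at 730. Among the 6 box H/ACA genes, Nop10 was at 2436, 1892 and 1871 and Shq1 at 363, 363 and 344, while Dkc1, the dyskerin gene, and Nhp2, Gar1 and Naf1 were equal on all arrays. Of the 8 assembly genes 4 were higher in PLZF+/+ and 4 equal, and the AAA+ ATPase gene Ruvbl1, at 519, 494 and 431, differed most.

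Of the Sm proteins, which form the ring on spliceosomal RNAs, 6 of 8 genes were measured. Snrpb was at 2170, 1808 and 1577 and Snrpe at 3120, 2787 and 2358, with log2 differences of 0.46 and 0.40, while Snrpd2 and Snrpg were slightly higher in PLZF+/+ and Snrpd1 and Snrpd3 were equal in the outer genotypes. In the U6-binding Lsm list 3 of 7 were higher in PLZF+/+ and 1 lower, led by Lsm3 at 1676, 1329 and 1371 and Lsm8 at 1347, 1034 and 1169. All but 1 of the 5 proteins particular to the U1 or U2 particle were higher, by at most 0.20 for Snrpa. The SMN complex, which loads Sm rings, had 4 higher, 2 lower and 3 equal among 9, with Gemin8 at 273, 243 and 217 by its brighter probe set as the largest and Gemin5 at 691, 713 and 726 in the other direction. The other probe set of Gemin8 was at 161, 165 and 161, with equal values in the outer genotypes. The 17 genes of SNAPc and Integrator, which start and end snRNA transcripts, had 12 higher, 1 lower and 4 equal. Here Snapc2 was at 644, 644 and 516, and Ints12, at 1076, 689 and 930, was lowest in PLZF+/lu. Snapc3, at 3630, 3867 and 3989, was the lower one. Among the Cajal body genes Coil and Wrap53 were equal and Tgs1, the cap methyltransferase gene, was at 675, 672 and 672. The trimming enzymes Exosc10, Parn and Dis3 were equal on all arrays, at 2496, 568 and 578. Of 20 noncoding host transcripts 6 were measured as single genes, and apart from Gas5, at 1840, 1840 and 1834, they were equal on all arrays (Snhg5, Snhg11, Snhg17, Meg3 and Dancr).

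**Figure D4:**
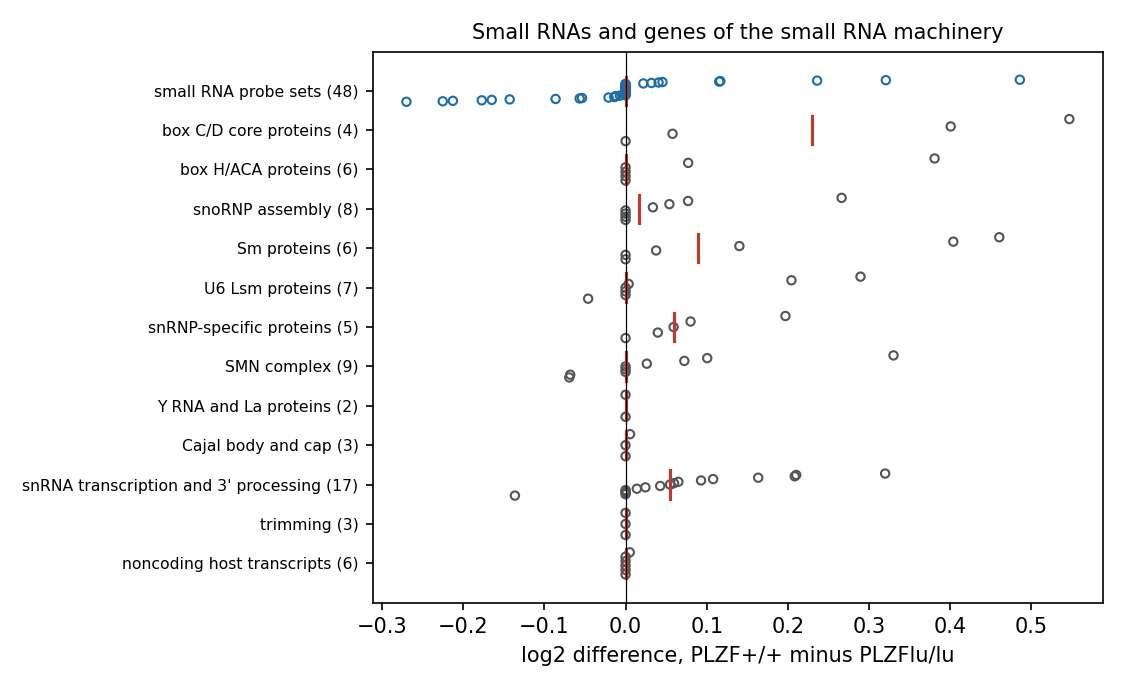
Difference between PLZF+/+ and PLZFlu/lu on the log2 scale for the 48 small RNA probe sets (top row) and for the measured genes of each list, with 1 array per genotype. Each circle is a probe set, the number of them stands in parentheses, and the red bar is the median. The largest values are 0.55 for Fbl, 0.49 for Snora44 and 0.46 for Snrpb, all far below the 2-fold difference of 1.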

How the data were processed

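The authors hybridised labelled total RNA of 3 samples to whole-transcript Affymetrix arrays (Mouse Gene 1.0 ST), ran GenePattern modules (ExpressionFileCreator, MultiplotPreprocess and Multiplot), removed normalization controls and deposited 1 intensity per probe set, not on a log scale. The build in the submitters' processing notes is mm 8. For probe summarisation, background correction and scaling the method is not given in the sources used. Every value column could be matched to a sample, with 0 left over. The number of arrays limits the precision.

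Intensities were compared as log2 differences of the deposited values, without further scaling, and values within 1e-06 were taken as equal. Symbols came from the platform annotation and were updated through gene identifiers to RefSeq (GRCm38.p6). Genes are given by the probe set with the highest mean log2 value among those listing that gene alone. All 63 small RNAs matched a RefSeq gene, and none of the start regions belongs to them. The members and lists were chosen with earlier results of these data known. Named by rule were members past 2-fold and above background, the largest differences among probe sets with another symbol, the largest of each class, and list genes past 2-fold, or otherwise the 2 that differed most. Further members are named so that every probe set is accounted for, and further list genes after their values were seen. Probe sets of 1 RNA are numbered in the order of their identifiers.

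The alternatives were quantile normalization, median centring, cyclic loess, adding 32 to all intensities, dropping dim probe sets, thresholds of 1.5-fold and 3-fold, exactly 1 small RNA symbol, and PLZFlu/lu against the mean of the other genotypes. The tools were limma 3.58.1 in R 4.3.3, and pandas 2.3.3, numpy 2.4.6 and matplotlib 3.10.9 in Python 3.11.15. The counting was tested on simulated data.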

Additional observations from a re-analysis of the deposited data

How the results depend on the processing

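The count of 0 past 2-fold among the 48 probe sets with small RNAs only held under every scaling, offset and filter tried in each comparison, and became 1, Snora44, at 1.5-fold between PLZF+/lu and PLZFlu/lu. The count of 4 among the 20 probe sets with another symbol, PLZF+/+ against PLZFlu/lu, was 2 with 32 added, 1 without dim probe sets, 1 at 3-fold and 0 without the Snord116 probe sets, an alternative chosen after seeing the data. The count of 3 between PLZF+/lu and PLZFlu/lu was 1 with 32 added, 0 without dim probe sets, 6 at 1.5-fold, 1 at 3-fold and 0 without Snord116, and without Snord116 the median of the remaining probe sets with another symbol was -0.047 in place of -0.21. The count of 0 between PLZF+/+ and PLZF+/lu was 1 at 1.5-fold. Of 121 unequal differences of members, 8 turned sign under a scaling (quantile normalization, median centring or cyclic loess), and each of these was at most 0.02 in size on the log2 scale. They belong to Snora65, Rny1, Snora52, Snord32a, Snord15b, Snora62 and the second probe set of Rnu2-10. The dim Snord116 values depend on the offset by construction. With 1 array per genotype no replicate could be left out. No paired analysis was possible because each group holds 1 sample.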

Other observations

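Other small noncoding RNAs had probe sets of their own and were looked at after the values were seen. Terc, the box H/ACA RNA that serves as the template of telomerase, was at 3545, 2494 and 3336 in the order wild type, heterozygote and homozygote, so that PLZF+/lu was lowest and 1.42-fold below PLZF+/+. Vaultrc5, an RNA of vault particles, was at 299.6, 194 and 265, also lowest in PLZF+/lu, by 1.54-fold against PLZF+/+. Rmrp, the RNA of the RNase MRP enzyme that cuts ribosomal RNA precursors, was at 5806, 5550 and 6582. None of these 3 differed by more than 2-fold in any comparison. Of the 4 probe sets of Gas5, a host of several box C/D snoRNAs, the dimmest was at 186, 192 and 274, a log2 difference of -0.56 between PLZF+/+ and PLZFlu/lu, while the other 3 differed by -0.06 to 0.01.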
